A study of Mus musculus with 44 samples.

Results

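Cancer-associated fibroblasts (CAFs) without CD26 on their surface were compared inside each tumor by whether they descend from cells that once expressed En1. The comparison takes every tumor-bearing mouse from which both CD26-negative sorts were sequenced, and sets the GFP-positive sort (labelled EN1+, here En1+) against the GFP-negative sort (labelled -/-, here double−) of the same mouse. This gave 7 pairs, or 14 of the 44 libraries of the series, and the members were chosen from the labels alone. The 7 recipients were En1-Cre;mTmG females, bred over 2 generations from purchased En1-Cre mice and an FVB/n mTmG line and so of mixed background, about 3 weeks old at transplantation. In 4 of them (mice 93, 12, 14 and 35) the donor tissue carried WapCre;Brca1F/F;Trp53F/F (WB1P), and in 3 (mice 67, 23 and 69) it also carried Col1a1invCAG-Myc-IRES-Luc (WB1P-Myc). Donors were 4 to 6 weeks old, and WapCre restricts recombination in them to mammary epithelium. The recipients' fat pads were not cleared, so each host kept its own mammary epithelium. Fibroblasts were sorted as EpCAM−/CD49f−/CD31−/CD45− cells, and the age and time of harvest of single mice are not given in the sources used here. The labels mark WB1P-Myc mice 23 and 69 as 8x8, a tumor size in mm that the study calls advanced, and give no size for the other 5. The paper instead describes the sequenced tumors of both models as end-stage, a stage it sets at 15 x 15 mm, and the sources used here do not settle this difference.

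En1 codes for a homeodomain transcription factor of the embryonic dermomyotome, the part of the somite that forms dorsal dermis and trunk muscle. In the En1-Cre;mTmG mouse, Cre made from the En1 locus removes a tdTomato cassette and turns on GFP for good, so GFP records that a cell or its ancestor expressed En1 and not that it does so now. In skin, fibroblasts of this lineage are known for laying down scar tissue. The question put to the pairs is whether this lineage history goes with another expression program once both kinds of fibroblast have become CD26-negative CAFs of one tumor.

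The table held 9770166 to 15055726 counts in the 14 libraries, with a median of 12895955 in the 7 En1+ and 12670183 in the 7 double− libraries. En1+ libraries had a count on 19093 to 19864 genes, with a median of 19459, and double− libraries on 19443 to 20094, with a median of 19939. The number was lower in En1+ in 6 of 7 mice (exact sign-flip test over mice, 2-sided, p = 0.0625, adjusted over the 4 library values tested 0.104). The share of counts on mitochondrial genes was 0.599% to 0.767% in En1+ and 0.595% to 0.924% in double− libraries and lower in En1+ in 6 of 7 mice (exact sign-flip p = 0.0312, adjusted 0.104). For the total count the exact sign-flip p was 0.156, and for the share of the 20 genes with the most counts it was 0.0781, where 7 pairs allow no p below 0.0156. The part of these library differences in the results below was not tested.

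En1, Zic1 and Gt(ROSA)26Sor were measured first, of which the labels name only En1. En1 (ENSMUSG00000058665) was transcribed in all 14 libraries. It had 52.7, 17.8, 24.7 and 13.9 CPM (counts scaled to library size, with TMM factors of the 14 libraries) in the En1+ sorts of WB1P mice 93, 12, 14 and 35, and 8.19, 12.4 and 18.0 CPM in those of WB1P-Myc mice 67, 23 and 69. In the double− sorts of the same mice, in the same order, it had 22.1, 9.79, 14.3, 9.07, 5.95, 9.51 and 7.46 CPM. En1 was thus higher in the En1+ sort of every one of the 7 mice, while the ranges of the sorts overlapped, and the double− libraries were not free of En1 RNA. The log2 fold change was 0.83 (SE 0.11, adjusted p 0.0139). Zic1 (ENSMUSG00000032368), a zinc finger factor of the dorsal somite, was close to the limit of detection. It had 16, 17, 14 and 2 counts in the En1+ libraries of mice 93, 12, 14 and 35, 0, 2 and 3 counts in those of mice 67, 23 and 69, and 1 count, in mouse 93, in all double− libraries together. The ratio of 54 to 1 counts, corrected for depth, was 51.9, with a 95% counting interval of 8.92 to 2086 (adjusted p 0.0130), and Zic1 was higher in En1+ in 6 of 7 mice with no count in either library of mouse 67. Gt(ROSA)26Sor, the non-coding transcript of the locus that carries the mTmG reporter, had 4.54 to 6.98 CPM (median 5.89) in En1+ and 2.34 to 5.33 CPM (median 3.80) in double− libraries. It was higher in En1+ in 7 of 7 mice (log2 fold change 0.75, SE 0.12, adjusted p 0.0254). Without WB1P mouse 93 or 35 these calls were lost, with a largest adjusted p of 0.0669 for En1, 0.135 for Zic1 and 0.0777 for Gt(ROSA)26Sor when any 1 mouse was left out. Of the 7 fits with 1 mouse left out, 5 called En1, 5 Zic1 and 3 Gt(ROSA)26Sor.

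Dpp4, the receptor genes Pdgfra and Pdgfrb, and the genes of the proteins used to remove other cells were not called. Dpp4, which codes for CD26, had 1.22 to 7.52 CPM (median 5.66) in En1+ and 2.17 to 10.7 CPM (median 6.46) in double− libraries, and its log2 fold change of -0.46 (SE 0.16) did not pass (adjusted p 0.244), although it was lower in En1+ in 6 of 7 mice at an unadjusted p under 0.05. On a scale normalized over all 44 libraries, the CD26-positive CAF sorts had 234 to 705 CPM of Dpp4, so that both sorts compared here were low in it. Pdgfra and Pdgfrb, receptors that mark fibroblasts and mural cells, had medians of 591 and 1463 CPM in En1+ and 505 and 1404 CPM in double− libraries. Genes of the proteins used to remove other cells were present at lower counts. Epcam ranged from 0.184 to 48.9 CPM over the 14 libraries, Itga6 (CD49f) from 13.5 to 60.1, Pecam1 (CD31) from 1.25 to 6.93 and Ptprc (CD45) from 0.0640 to 16.3. Of these 6 genes 0 were called between the sorts by edgeR, with adjusted p from 0.146 to 0.997, and 2 (Itga6 and Ptprc) were lower at an unadjusted p under 0.05.

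**Figure D1:**
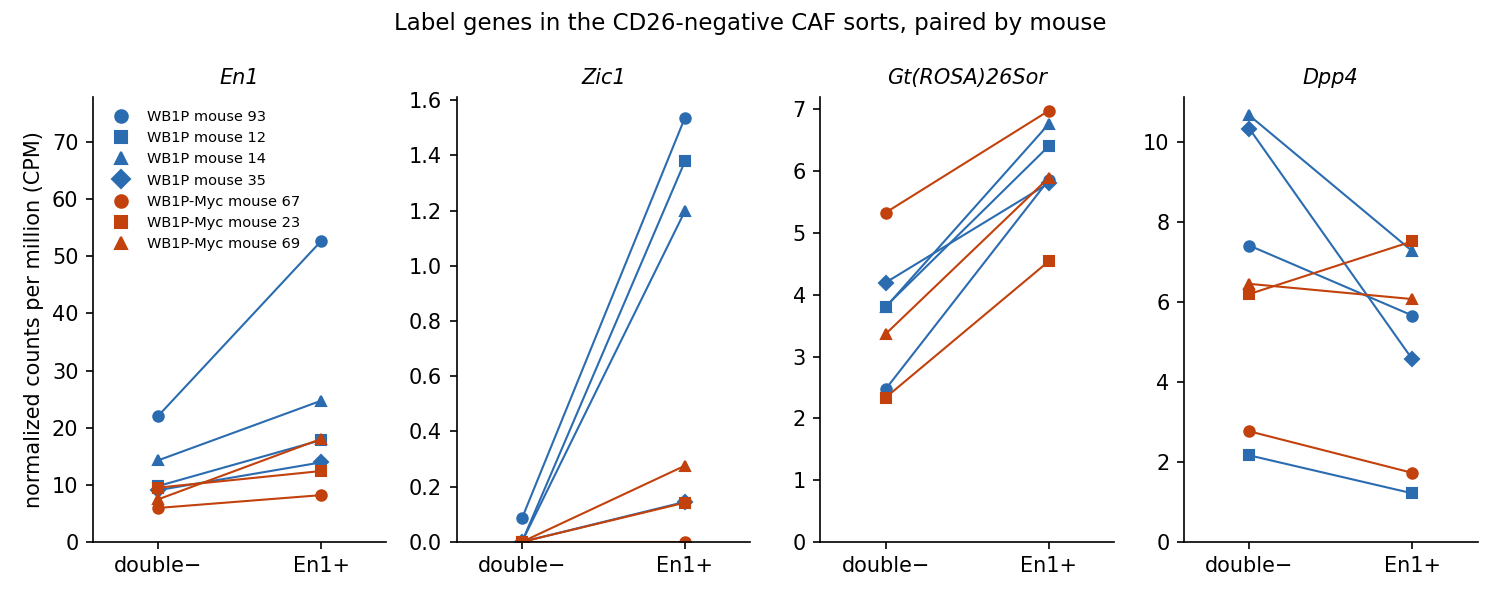
Each panel plots 1 gene in normalized CPM (vertical axis, linear, from 0) in the double− and En1+ libraries of 7 mice, and a line joins the libraries of 1 mouse. En1 and Gt(ROSA)26Sor were higher in the En1+ library of 7 of 7 mice and Zic1 of 6, while Dpp4 stayed at or below 10.7 CPM in all 14.

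The sorts were then compared over all genes. Of 14669 genes tested, 108 were called at an adjusted p under 0.05 (0.736%), of which 30 were higher (0.205%) and 78 lower (0.532%) in En1+. At an unadjusted p under 0.05 there were 981 genes higher (6.69%) and 983 lower (6.7%). Only 19 genes also had an absolute log2 fold change over 2 (0.13%), the limit the study used. The genes that rose did so by little: their median log2 fold change was 0.30, and apart from Zic1 the largest was 0.83, that of En1. The genes that fell had a median absolute change of 0.89 and fewer counts, with a median of 11.9 CPM in double− libraries against 85.5 CPM in En1+ libraries for those that rose. Of the 30 genes called higher 29 were higher in 7 of 7 mice, and of the 78 called lower 55 were lower in 7 of 7. The count rested on the set of mice, on the pairing by mouse and on single mice. With WB1P pairs only it was 736, with WB1P-Myc pairs only 3, and without the mice marked 8x8 679. Without the mouse as a block edgeR called 0 genes, with 163 at an unadjusted p under 0.05. It also called 0 without WB1P mouse 93 or 35, with 1500 and 1472 genes at an unadjusted p under 0.05. It called 22 without mouse 12 or 14, 21 without mouse 67 and 478 without mouse 69, and 0 of the 108 genes were called with each of the 7 mice left out in turn. With all 7 mice DESeq2 called 229 genes and limma-voom 161, which included 95 and 103 of the 108, and all 108 kept their direction in every alternative that tested them.

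Among the genes that rose, Adamts16, a secreted metalloprotease of the matrix, had the lowest p after Zic1. It had 29.1 to 206 CPM (median 140) in En1+ and 14.8 to 131 CPM (median 93.1) in double− libraries and was higher in En1+ in 7 of 7 mice (log2 fold change 0.57, SE 0.07, adjusted p 0.0130). Adamts6, a protease of the same family, rose as well (0.29), and so did Mmp13, a collagenase. Mmp13 had 163 to 4714 CPM (median 1150) in En1+ and 138 to 2820 CPM (median 699) in double− libraries (log2 fold change 0.43, SE 0.08, adjusted p 0.0416). Levels of Mmp13 thus differed far more between mice than between the sorts of a mouse. Of the other genes that rose, Htr2a and Htr2b, both serotonin receptors, had log2 fold changes of 0.50 (SE 0.09) and 0.55 (SE 0.11), Prokr2, a prokineticin receptor, 0.47 (SE 0.07), and Adcy2, an adenylyl cyclase, 0.52 (SE 0.09), each in 7 of 7 mice. Further genes that rose included Edil3 (0.44), an integrin ligand, Sdc3 (0.29), a heparan sulfate proteoglycan, C1qtnf3 (0.41), a secreted protein of the C1q and TNF family, and Col24a1 (0.29), a fibrillar collagen. Slc2a1 (0.21), the glucose transporter GLUT1, and Pfkfb3 (0.25), which makes an activator of glycolysis, rose with them, as did Pmaip1 (0.36), a pro-apoptotic BCL2 family gene, and Kctd11 (0.33), an adaptor of a ubiquitin ligase that restrains Hedgehog signaling. None of these calls held without WB1P mouse 93 or 35, and the largest adjusted p with 1 mouse left out was 0.0669 for Adamts16, 0.141 for Mmp13 and 0.145 for Htr2a. Of the 7 fits with 1 mouse left out, 5 called Adamts16, 4 Prokr2 and 3 Kctd11, only 1 called Mmp13, Adamts6, Htr2b or Slc2a1, and 2 called each of the others. Adamts6 and Col24a1 were chosen after their values were seen.

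Among the genes that fell in En1+, Gdf10, a ligand of the TGF-beta superfamily also called Bmp3b, had 51.2, 10.4, 15.3 and 40.0 CPM in the En1+ libraries of mice 93, 12, 14 and 35 and 83.4, 18.0 and 212 CPM in those of mice 67, 23 and 69. The double− libraries had 89.8, 27.1, 36.6, 112, 188, 39.4 and 274 CPM in the same order, so that Gdf10 was lower in En1+ in 7 of 7 mice although it varied widely between them (log2 fold change -1.05, SE 0.12, adjusted p 0.0130). Comp, a matrix protein of cartilage and tendon that binds collagen, had 0.213 to 16.9 CPM (median 3.94) in En1+ and 0.403 to 40.6 CPM (median 14.3) in double− libraries (log2 fold change -1.63, SE 0.19, adjusted p 0.0130). Chrdl1, which binds and blocks BMPs, had 3.65 to 50.1 CPM (median 9.79) in En1+ and 9.41 to 69.4 CPM (median 37.8) in double− libraries (-1.29, SE 0.18, adjusted p 0.0139). Both were lower in the En1+ library of every mouse. Bmp2, a BMP ligand, and Ltbp1, which holds latent TGF-beta in the matrix, fell by 0.72 and 0.38 on the log2 scale, and Sfrp4, a secreted Wnt antagonist, fell by 0.87. The complement gene C7, a component of the membrane attack complex, fell by 1.18 and Cfi, the protease that inactivates C3b, by 0.93. Procr, the protein C receptor, fell by 0.67, Vcam1, an adhesion molecule for leukocytes, by 0.26, and Gfra2, a coreceptor for neurturin, by 0.44. Transcription factors that fell were Nfib (by 0.45), Ahr, the aryl hydrocarbon receptor (by 0.45), and Hopx, a homeodomain protein that does not bind DNA (by 0.94). Ccdc3, a secreted protein of fat and endothelium, fell by 0.78 and Inpp4b, a phosphoinositide phosphatase, by 0.72. All were lower in 7 of 7 mice. Without mouse 93 or 35 these calls too were lost, with a largest adjusted p of 0.0512 for Gdf10, 0.0541 for Comp, 0.0669 for Chrdl1 and 0.145 for Vcam1. Gdf10, Comp, Chrdl1, Procr and Nfib were called in 5 of the 7 fits, Gfra2 and Ccdc3 in 3, Ltbp1 and Cfi in 1, and the others in 2.

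The largest decreases in En1+ were those of genes that fibroblasts are not known to express. Of 20 immunoglobulin gene segments tested, a group chosen after its values were seen, 8 were called and all 8 were lower, against 78 lower (0.532%) of all 14669 genes. DESeq2 called only 2 of the 8, Ighm and Igkc, the constant region of kappa light chains. The summed level of all 424 immunoglobulin segments in the table was 33.3, 0.486, 3.59 and 0.290 CPM in the En1+ libraries of mice 93, 12, 14 and 35 and 0.256, 0.5676 and 32.6 CPM in those of mice 67, 23 and 69. In the double− libraries it was 264, 1.87, 0.362, 5.02, 66.4, 3.22 and 651 CPM in the same order. It was thus lower in En1+ in 6 of 7 mice, and most of it came from the double− libraries of mice 93, 67 and 69. Ighg1, the constant region of IgG1, had 3 counts in En1+ and 824 in double− libraries, of which 696 were in mouse 69 and 127 in mouse 93. The ratio was 286-fold lower in En1+ (95% counting interval 97.5 to 1389), and by DESeq2 the gene was not called (adjusted p 0.999). Igkv19-93, Ighg2c, Igkv12-44 and Igkv17-127 had 0 counts in all En1+ libraries and were at least 47.2-, 34.0-, 30.5- and 23.9-fold lower, against a floor of 3 counts over the group. Their counts came from 3, 3, 2 and 3 of the 7 double− libraries, and neither DESeq2 (adjusted p 0.999 for each) nor limma-voom (0.0924, 0.112, 0.178 and 0.113) called them. These bounds rested largely on single double− libraries. The highest was that of mouse 69 for Igkv19-93, Igkv12-44 and Igkv17-127 (7.28, 6.82 and 3.46 CPM), with 3.32, 0.900 and 1.62 CPM in the next. For Ighg2c it was that of mouse 67 (4.64 CPM), with 2.27 CPM in the next. Counting could divide reads between such near-identical segments in ways that cannot be seen in the table, so the single segments are uncertain. Ighm (29 against 492 counts) and Jchain (74 against 923), the joining chain of plasma cell antibody, fell by 3.78 and 3.30 on the log2 scale, the former in 7 of 7 and the latter in 5 of 7 mice, and Jchain was not called by DESeq2 (adjusted p 0.370). Without mouse 93 or 35 these calls were lost. Of the 7 fits with 1 mouse left out, 5 called Igkc, 4 Ighm, 4 Jchain, 3 Igha (also among the 8) and 1 Igkv17-127. Ighg1, Igkv19-93, Ighg2c and Igkv12-44 were tested in 5 of these fits and called in 4, 2, 1 and 0.

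Genes known from immune cells fell as well. Csf3r, the receptor for G-CSF, had 0 to 1.96 CPM (median 0.342) in En1+ and 0.149 to 21.4 CPM (median 0.886) in double− libraries (log2 fold change -3.05, SE 0.37, lower in 6 of 7 mice), and S100a9, a neutrophil calcium-binding protein, 0 to 1.31 and 0.0692 to 11.6 CPM (-3.26, SE 0.43, 7 of 7). Nod2, a sensor of bacterial peptidoglycan, fell by 1.24 and Syk, a kinase of immune receptors, by 1.45, both in 7 of 7 mice. CD26-positive CAF sorts held more Syk than either sort here, and which cells its counts came from was not tested. Of the 26 genes of the fixed immune list 22 were tested. Of these 3 fell (S100a9, H2-Aa and Cd14) and 0 rose, where 0.532% of all genes fell. A lower value at an unadjusted p under 0.05 was found for 16 (6.7% of all genes), and 22 of 22 had a log2 fold change below 0 (median -0.71, against -0.0022 over all genes tested). The list summed to 37.3 to 181 CPM (median 127) in En1+ and 55.8 to 564 CPM (median 174) in double− libraries and was lower in En1+ in 7 of 7 mice. Mouse 35 had the widest gap, with 181 against 564 CPM. Cd74, the invariant chain of MHC class II, had the most counts of the list. Cd3d was at the floor in all 14 libraries, and Ptprc had medians of 1.63 and 2.66 CPM. Cells were sorted against CD45, and the libraries are bulk, so that fewer cells of a type and less RNA per cell cannot be told apart. The part of immune RNA in the 108 calls was not tested. As with the others, these calls were lost without mouse 93 or 35, with a largest adjusted p of 0.0969 for S100a9, 0.0878 for Csf3r, 0.135 for H2-Aa and 0.154 for Cd14. Csf3r, S100a9 and Nod2 were called in 5 of the 7 fits with 1 mouse left out, Syk in 2, and H2-Aa and Cd14 in 1.

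**Figure D2:**
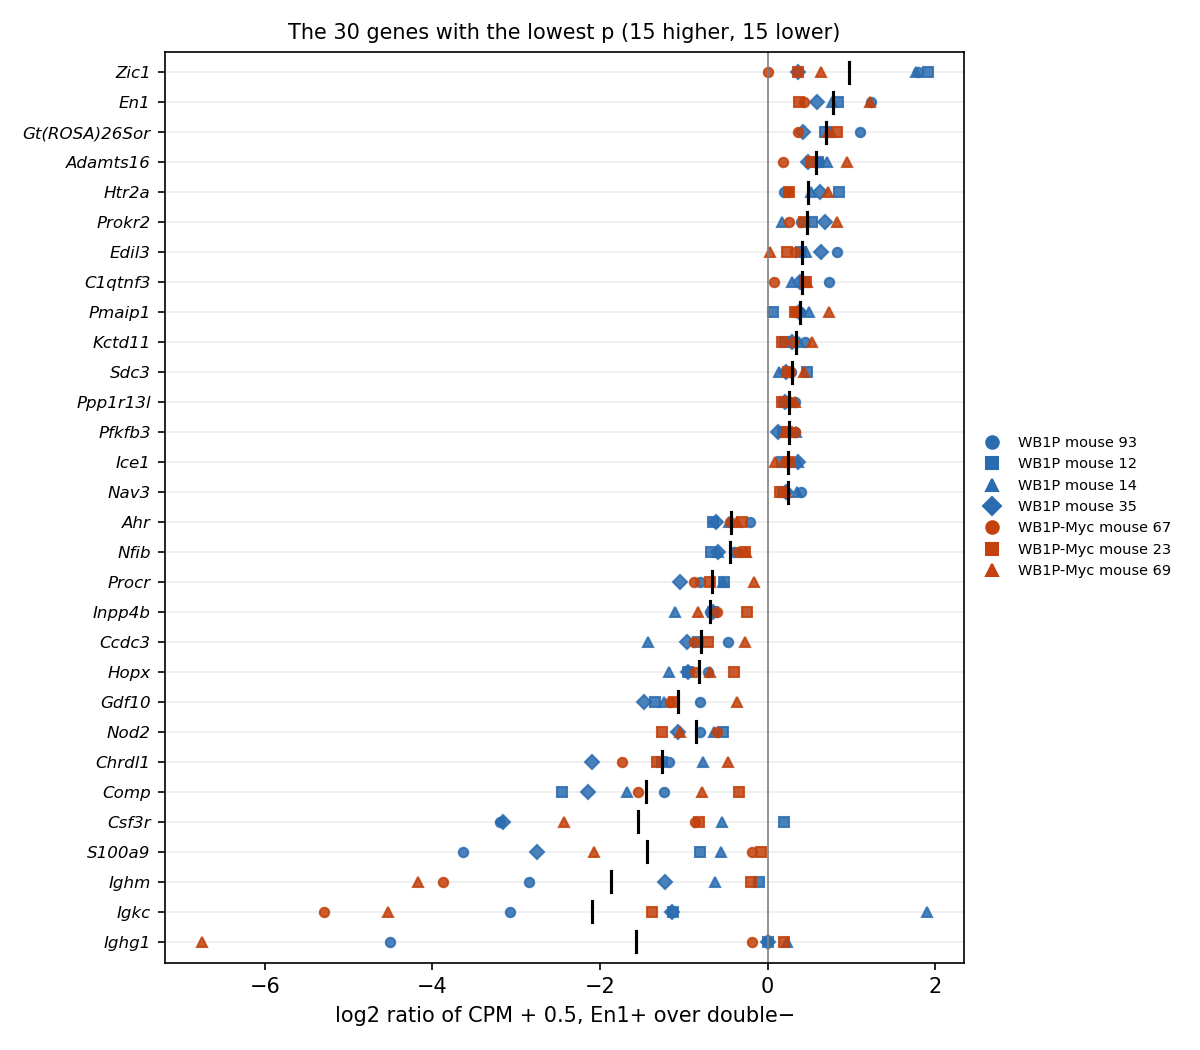
Rows are the 15 genes with the lowest p in each direction, the horizontal axis is the log2 ratio of CPM + 0.5 of the En1+ over the double− library, each symbol is 1 mouse and each black bar the mean of 7 mice. From En1 to Nav3 and from Ahr to Comp the 7 mice lay on one side of 0, whereas for Ighg1 the values below -4 came from mice 69 and 93 alone.

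Among factors of the embryonic somite only En1 and Zic1 were called. Of all 14669 genes 0.205% rose and 0.532% fell, and 6.69% were higher and 6.7% lower at an unadjusted p under 0.05, which are the shares to set beside the lists that follow. Of the 31 somite and dermomyotome factors 17 were tested, 2 rose (En1 and Zic1) and 0 fell, 4 were higher and 2 lower at an unadjusted p under 0.05, and the median log2 fold change was 0.05. A further member, Foxc2, a forkhead factor, had opposite signs in the tumor models (-0.76 in WB1P and 0.37 in WB1P-Myc), as given below. Meox2, a somite homeobox gene, was lower in 6 of 7 mice without a call (-0.32, adjusted p 0.105). Zic2, Zic4, Zic5, Pax1, Pax3, Uncx, Nkx3-2 and Myf5 had 3 counts or fewer in every one of the 14 libraries. At this depth neither sort thus had more than a trace of these 8 factors. Of 35 factors of the lateral plate and limb field 25 were tested and 0 were called by edgeR (1 by DESeq2, 0 by limma-voom), with 6 higher and 3 lower at an unadjusted p under 0.05 and a median of 0.05. Of these, Foxf1, a factor of visceral mesenchyme, was higher in 7 of 7 mice (0.33, adjusted p 0.0974). Of 39 Hox genes, which record position along the body axis, 26 were tested and 0 called by edgeR, with 2 higher and 0 lower at an unadjusted p under 0.05 and a median of 0.09. DESeq2 and limma-voom called 0 Hox genes too. Of 20 genes of dermal fibroblasts 19 were tested and 0 called by edgeR (1 by DESeq2, 0 by limma-voom), with 1 higher and 4 lower at an unadjusted p under 0.05 and a median of -0.16.

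The matrix and contractile lists held few calls. Of the 30 myofibroblast and fibrosis genes, all tested, 1 rose (Mmp13) and 1 fell (Comp), where 0.205% of all genes rose and 0.532% fell. At an unadjusted p under 0.05, 16 were higher and 2 lower (against 6.69% and 6.7% of all genes tested), and the median was 0.11. The list as a whole was not tested. Their summed level was higher in En1+ in 7 of 7 mice, with 34045 to 75410 CPM (median 59802) against 27593 to 63509 CPM (median 52102). Tnc, the matrix glycoprotein tenascin C, had 2950 to 10294 CPM in En1+ and 2743 to 9206 CPM in double− libraries, and Col8a1, a short-chain collagen, 594 to 3243 and 525 to 3044 CPM. Both were higher in En1+ in 7 of 7 mice and missed the threshold (0.25, adjusted p 0.0528, and 0.21, adjusted p 0.0501). Of 33 interstitial matrix genes 0 were called by edgeR (7 by DESeq2, 0 by limma-voom), with 10 higher and 4 lower at an unadjusted p under 0.05 and a median of 0.10, and Col1a1, the gene with the most counts, had medians of 22451 and 20614 CPM. Among 21 contractile genes, the smooth muscle program of myofibroblasts, 1 fell, Synpo2 (by 0.63), against the same 0.532%, and 0 rose. At an unadjusted p under 0.05, 1 was higher and 4 were lower, and the median was -0.0047. Myh11, the smooth muscle myosin heavy chain, was lower in 6 of 7 mice (-0.56, adjusted p 0.0501). Of 24 basement membrane genes 0 were called by edgeR (2 by DESeq2, 0 by limma-voom), with 3 higher and 4 lower at an unadjusted p under 0.05 and a median of -0.08. The calls of Mmp13, Comp and Synpo2 were lost without mouse 93 or 35, with a largest adjusted p of 0.141, 0.0541 and 0.154, and held in 1, 5 and 1 of the 7 fits with 1 mouse left out.

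In the lists of inflammatory and of adventitial fibroblast genes more members were lower than higher in En1+, and neither list was tested as a whole. Of 33 inflammatory genes tested 0 were called by edgeR (3 by DESeq2, 1 by limma-voom), but 13 were lower and 1 higher at an unadjusted p under 0.05 (against 6.7% and 6.69% of all genes), and 28 of 33 had a log2 fold change below 0 (median -0.20). C3, the central complement protein, had 320 to 4234 CPM (median 865) in En1+ and 523 to 3823 CPM (median 1619) in double− libraries (-0.61, adjusted p 0.0794), and Cxcl12, a chemokine of stromal cells, 182 to 1022 and 293 to 1091 CPM (-0.37, adjusted p 0.0705). Both were lower in En1+ in 6 of 7 mice, and mouse 69 was the exception for both. The 1 gene higher at an unadjusted p under 0.05 was Cxcl9, an interferon-induced chemokine (0.38, adjusted p 0.0501, 7 of 7 mice). Of 20 genes of adventitial progenitor fibroblasts tested, 2 fell, Procr (by 0.67) and Limch1 (by 1.46), and 0 rose, where 0.532% of all genes fell. A further 9 were lower and 1 was higher at an unadjusted p under 0.05, and the median was -0.30. Cd34, a surface marker of such cells, was lower in 6 of 7 mice (-0.62, adjusted p 0.0845). Here too mouse 69 went the other way: the list's median ratio was -0.14 to -0.57 in the other 6 mice and 0.14 in mouse 69, and for the inflammatory list it was -0.07 to -0.34 in 6 mice and 0.28 in mouse 69. Without mouse 93 or 35 the calls of Procr and Limch1 were lost (largest adjusted p 0.0674 and 0.0813, called in 5 and 1 of the 7 fits with 1 mouse left out).

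Among the signaling and state lists, that of the TGF-beta and BMP pathway held the most calls. Of its 41 genes tested 4 fell (Gdf10, Chrdl1, Bmp2 and Ltbp1) and 0 rose, against 78 lower (0.532%) and 30 higher of all 14669, with 5 higher and 6 lower at an unadjusted p under 0.05 and a median of -0.02. Of 33 Wnt pathway genes 1 fell (Sfrp4) and 0 rose, with 8 higher and 5 lower at an unadjusted p under 0.05 and a median of -0.0057. Ror2, a receptor of Wnt signaling, was among the 8 (0.28, adjusted p 0.0909, 6 of 7 mice). Of 32 interferon-stimulated genes 0 were called by edgeR (1 by DESeq2, 0 by limma-voom), 10 were higher and 0 lower at an unadjusted p under 0.05, and the median was 0.13. Ifi44 was higher in 7 of 7 mice (0.35, adjusted p 0.0668). Of 26 genes of hypoxia and glycolysis 1 rose (Slc2a1), 8 were higher and 0 lower at an unadjusted p under 0.05, and the median was 0.09. Their summed level was higher in En1+ in 7 of 7 mice, with 3933 to 8624 CPM against 3603 to 7843 CPM. Of 30 cell cycle genes 0 were called by edgeR, DESeq2 or limma-voom and 9 were lower at an unadjusted p under 0.05. All 30 had a log2 fold change below 0 (median -0.18), and the summed level was lower in En1+ in 6 of 7 mice, with WB1P-Myc mouse 67 as the exception. Of 23 immediate-early and heat-shock genes, which tissue digestion is known to induce, 0 were called by edgeR (1 by DESeq2, 0 by limma-voom), with 1 higher and 1 lower at an unadjusted p under 0.05 and a median of 0.03. The calls of these lists were lost without mouse 93 or 35, with a largest adjusted p of 0.0754 for Sfrp4, 0.115 for Bmp2, 0.109 for Ltbp1 and 0.162 for Slc2a1, and in 5 of 7 such fits Sfrp4 and Bmp2 were not called, in 6 of 7 Ltbp1 and Slc2a1.

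Markers of other cells were counted for the whole of each list. Of 16 pericyte markers 0 were called by edgeR (1 by DESeq2, 0 by limma-voom), 5 were lower at an unadjusted p under 0.05, and the median was -0.29. They summed to 2517 to 6602 CPM (median 3818) in En1+ and 2890 to 6110 CPM (median 4298) in double− libraries, most counts were on Pdgfrb, and none was at the floor. Of 15 endothelial markers tested 0 were called and 0 had an unadjusted p under 0.05 by edgeR (median -0.26, sums of 240 to 692 and 276 to 619 CPM, most counts on Eng), and Sox17 and Mmrn1 were at the floor. Of 24 epithelial markers 0 were called by edgeR, with 2 higher and 3 lower at an unadjusted p under 0.05 (median -0.22). Their sums of 25.3 to 290 CPM in En1+ and 71.1 to 395 CPM in double− libraries had most counts on Itga6, with medians of 0 and 0.0904 CPM for Krt5. Of 17 skeletal muscle markers tested 0 were called and 0 had an unadjusted p under 0.05 by edgeR, most counts were on Des, and Myh2, Myh7, Myod1, Myog and Myf6 were at the floor. Their summed level was 162 and 230 CPM in the En1+ libraries of mice 93 and 12 against 95.0 and 110 CPM in double−, and 52.5 against 223 CPM in mouse 14. Muscle RNA was thus higher in En1+ in some mice and lower in others. Of 10 Schwann cell markers tested 0 were called by edgeR and 3 were lower at an unadjusted p under 0.05 (median -0.20, sums of 284 to 475 and 315 to 535 CPM, most counts on Scn7a, Gfra3 at the floor). Of 9 adipocyte markers tested 0 were called by edgeR and 1 was lower at an unadjusted p under 0.05 (median -0.34). Their sums were 264 to 1597 and 393 to 1521 CPM, most counts were on Lpl, Cidea, Lep, Pck1 and Ucp1 were at the floor, and mouse 69 alone was higher in En1+. Of 16 fibroblast markers, all detected, 0 were called by edgeR, with 1 higher and 2 lower at an unadjusted p under 0.05 and a median of 0.06, and they summed to 79342 to 110041 CPM in En1+ and 74350 to 97164 CPM in double− libraries. The part of these markers in the calls was not tested.

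**Figure D3:**
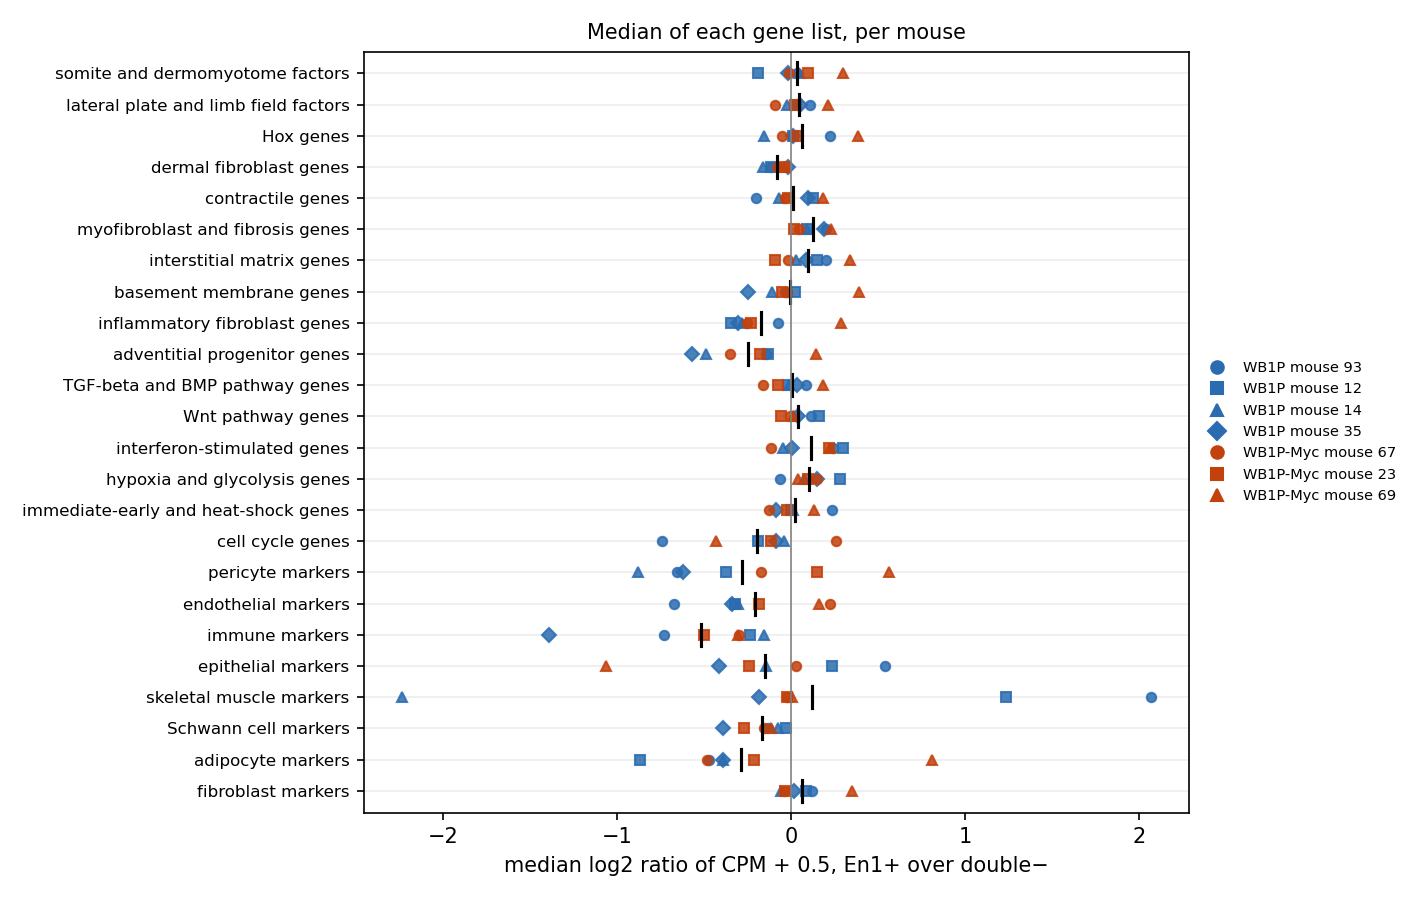
Rows are the 24 gene lists, the horizontal axis is the median log2 ratio of CPM + 0.5 of the En1+ over the double− library in each mouse, each symbol is 1 mouse and each black bar the mean of 7 mice. The myofibroblast list lay above 0 in 7 of 7 mice, the immune, dermal fibroblast and Schwann cell lists lay below 0 in 7 of 7, and the pericyte list ran from -0.88 in WB1P mouse 14 to 0.56 in WB1P-Myc mouse 69.

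The difference between the sorts was then compared between tumor models, since Myc is added in only one of them. An interaction test over the same 14 libraries (4 WB1P and 3 WB1P-Myc pairs) called 11 of 14669 genes (0.075%), with 898 at an unadjusted p under 0.05. Of the 11, 10 had a more positive En1+ over double− ratio in WB1P-Myc tumors. Abcc9, a subunit of the potassium channel of pericytes and smooth muscle, had 208 CPM in En1+ and 401 CPM in double− libraries of WB1P tumors on average, and 445 and 381 CPM in WB1P-Myc tumors. Its log2 ratio was -1.02, -0.80, -1.12 and -0.85 in WB1P mice 93, 12, 14 and 35, and -0.22, 0.32 and 0.54 in WB1P-Myc mice 67, 23 and 69 (difference 1.16, SE 0.16, adjusted p 0.0393). Rapgef4, an exchange factor for Rap activated by cyclic AMP, differed by 1.85 (SE 0.21), and Foxc2, a forkhead factor of somites and of vessel-associated mesenchyme, by 1.13 (SE 0.13). For both of these genes the 4 WB1P mice were lower and the 3 WB1P-Myc mice higher in En1+, so the groups did not overlap. Gucy1b1, a subunit of the nitric oxide receptor (0.96), Ano1, a chloride channel of smooth muscle (0.92), Apold1, an early response gene of vessels (1.06), Pilra, an inhibitory receptor (1.55), and Sema6d, a semaphorin (0.76), had the same sign. Acan, the cartilage proteoglycan aggrecan, had the opposite one (-3.35, SE 0.40), and it rested on mouse 69, whose En1+ library had 3.04 CPM and whose double− library had 61.1 CPM. Of the 16 pericyte markers 2 were called in this test, Abcc9 among them, 13 had an unadjusted p under 0.05, and 16 of 16 had a positive difference. In the WB1P part of this fit 8 of the 16 were called lower in En1+, against 190 of all 14669 genes, and in the WB1P-Myc part 0 were called. The median En1+ over double− change of these markers was -0.66 in WB1P and 0.21 in WB1P-Myc tumors. Medians of other marker lists moved with theirs or the other way, where 898 of all 14669 genes had an unadjusted p under 0.05. The median was -0.52 and 0.20 for endothelial markers (6 of 15 at an unadjusted p under 0.05) and -0.75 and 0.05 for adipocyte markers (3 of 9). It was -0.0068 and -0.26 for epithelial markers (4 of 24) and 0.33 and -0.16 for skeletal muscle markers (1 of 17). The interaction called 0 genes of these 4 lists by edgeR. In the WB1P part 2 endothelial and 1 epithelial marker were called lower. Of the adventitial list 8 of 20 had an unadjusted p under 0.05 in the interaction and 14 a positive difference. Its medians were -0.41 and -0.11. For the immune list these counts were 1 of 22 and 19, and the medians were -0.88 and -0.48. Each of these 2 lists had 5 members called lower in the WB1P part, 0 in the WB1P-Myc part and 0 in the interaction. No list was tested as a whole. Rgs5, a regulator of G protein signaling in pericytes, had log2 ratios of -0.96, -0.75, -1.20 and -0.84 in the WB1P mice and -0.36, 0.08 and 0.24 in the WB1P-Myc mice. The count of 11 rested on single mice: it was 1 without mouse 93, 37 without mouse 67, and 0 without mouse 12, 14, 35 or 23, with 709, 779, 812 and 904 genes at an unadjusted p under 0.05 by edgeR. The models cannot be told apart from tumor size in full, as both mice marked 8x8 carried WB1P-Myc tumors. A contrast of these 2 mice with the other 5, added after seeing the data, called 0 genes by edgeR, with 1318 at an unadjusted p under 0.05. In it 0 of the 16 pericyte markers were called, 14 of 16 had an unadjusted p under 0.05 and 16 of 16 a positive difference. Their median was 0.31 in the 2 mice marked 8x8 and -0.56 in the others, so that for these markers tumor model and size cannot be told apart.

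**Figure D4:**
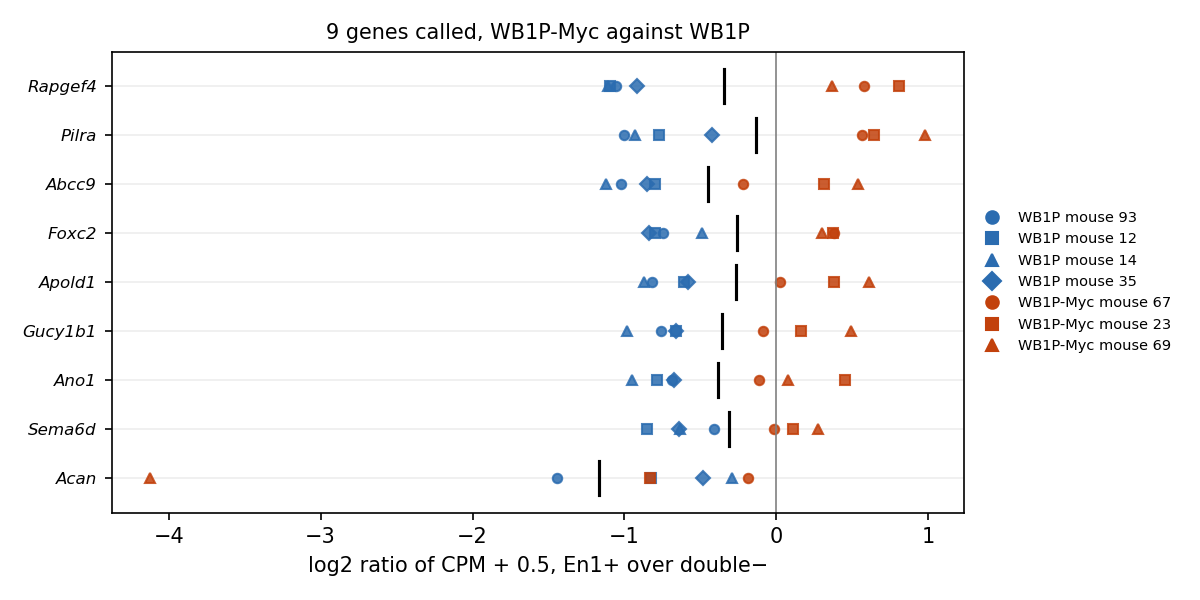
Rows are 9 genes called in the test of WB1P-Myc against WB1P, the horizontal axis is the log2 ratio of CPM + 0.5 of the En1+ over the double− library, each symbol is 1 mouse and each black bar the mean of 7 mice. The 4 WB1P mice lay below 0 for each gene, and for Rapgef4, Pilra, Foxc2 and Apold1 the 3 WB1P-Myc mice lay above it.

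The same lineage contrast exists among CD26-positive CAFs, as GFP-positive (labelled +/+) against GFP-negative (labelled CD26+) sorts of 6 mice, 5 of which also gave a pair here. The interaction of lineage and CD26 class called 7 of 15098 genes (0.0464%), with 1098 at an unadjusted p under 0.05. Adamts16 had on average 121 CPM in En1+ and 82.7 CPM in double− libraries and was higher in En1+ in 7 of 7 mice, while in the CD26-positive sorts it had 44.9 CPM inside and 50.3 CPM outside the lineage and was higher inside it in 1 of 6 mice (difference 0.75, SE 0.11, adjusted p 0.00937). Chrdl1 differed by -1.20 (SE 0.20), with 14.6 against 31.8 CPM in the CD26-negative and 121 against 126 CPM in the CD26-positive sorts, and Gfra2 by -0.66 (SE 0.10), being lower in En1+ in 7 of 7 CD26-negative and higher in 6 of 6 CD26-positive pairs. Syk (-1.43, with 2.60 against 7.82 CPM in the CD26-negative and 65.4 against 69.8 CPM in the CD26-positive sorts), Ighm (-6.40) and Jchain (-4.75) were called as well. The last 2 are antibody genes, with 161 against 17 counts of Ighm in the CD26-positive sorts and 29 against 492 in the CD26-negative ones. Without mouse 93 edgeR called 0 genes in this test, with 796 at an unadjusted p under 0.05, and without mouse 69 it called 31.

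In control recipients the fat pad received WapCre-negative Cdh1F/F;PtenF/F tissue, and 3 labels, each naming a pair of mice that may be a pool, give En1+ and double− sorts of normal fibroblasts (NFs). The interaction of lineage and tumor called 9 of 15414 genes (0.0584%), with 1240 at an unadjusted p under 0.05. Cntn2, an axonal adhesion molecule, had 0 counts in the 3 En1+ NF libraries and 50 in the 3 double− ones, which is at least 16.0-fold lower, whereas in CAFs it had 240 against 165 counts and was higher in En1+ in 7 of 7 mice (adjusted p of the difference 0.00180). Tbx3, a T-box factor of mammary development, was lower in En1+ in 3 of 3 NF pairs (49.2 against 74.0 CPM) and higher in 6 of 7 CAF pairs (100 against 85.4 CPM, difference 0.87, SE 0.11). Irx3, an Iroquois homeobox gene, had 4.83 against 9.30 CPM in NFs and 20.7 against 16.9 CPM in CAFs (difference 1.18, SE 0.19), and Epha3, an ephrin receptor, 44.4 against 66.7 and 106 against 96.4 CPM (0.71, SE 0.11). Gfra2 and Vcam1 went the other way, higher in En1+ in 3 of 3 NF pairs and lower in 7 of 7 CAF pairs (differences -0.62 and -0.54). Vwf (1.72), a gene of endothelial cells, Csn2 (2.15), the milk protein beta-casein, and Spint1 (3.18), an epithelial protease inhibitor, also differed. In NFs the median En1+ over double− change was -1.53 for epithelial, -2.67 for skeletal muscle, -0.84 for endothelial and -0.98 for immune markers, against -0.22, 0.14, -0.23 and -0.72 in CAFs. For Schwann cell markers it was -0.22 against -0.17, for pericyte markers 0.02 against -0.29 and for adipocyte markers 0.21 against -0.27. The immune median was thus below 0 in NFs as well, with 0 of 22 markers called there by edgeR. Of the epithelial and of the skeletal muscle markers 4 each were called lower in En1+ NFs, against 46 of all 15414 genes. In the interaction 18 of 24 epithelial and 13 of 21 skeletal muscle markers had an unadjusted p under 0.05, as 1240 of all genes did. The part of these markers in the 9 calls was not tested. The count was 0 without control pair 82/83, with 955 genes at an unadjusted p under 0.05 by edgeR, 1 without 49/52, 2 without 44/46 or mouse 35, 4 without mouse 12 or 23, 5 without mouse 67, 27 without mouse 14 and 152 without mouse 69, and 6 without mouse 93.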

How the data were processed

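RNA of sorted fibroblasts was measured as bulk, poly(A)-selected, stranded libraries from 13 mice or labels, 44 libraries in all. The authors aligned reads to GRCm38 with HISAT2 2.2.1 and deposited 1 table of raw read counts per gene, with 55487 lines, where 1 line without a gene name has 0 counts (0% of all). The counting tool, the annotation and whether counting used the strand are not given in the sources used here. The unit is the deposited count. The 14 libraries held 9770166 to 15055726 counts each, and genes with 3 counts or fewer in every library were treated as at the floor.

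Genes were kept with filterByExpr, normalized by TMM, and tested with the quasi-likelihood F test of edgeR 4.0.16 (R 4.3.3) with the mouse as a block and a Benjamini-Hochberg adjusted p under 0.05. Adjusted p in the text are from this test unless another tool is named. CPM are TMM-normalized, and ratios add 0.5 CPM. The study's limits (the same adjusted p, with log2 fold changes above 2 or below -2) are given beside. Interactions with tumor model, CD26 class and tumor or control were tested in the same way, with the mouse, or the mouse and CD26 class together, as a block. Ratios with 1 to 3 counts on one side carry a 95% counting interval, which holds counting error only. Values per library were compared by exact sign-flip tests. Pairing was checked: over 14669 genes, after removing the mean of each sort, both libraries of a mouse correlated at r between 0.634 and 0.840, and in 7 of 7 mice the closest library of the other sort was that of the same mouse. Library correlations had a median of 0.991 within and 0.962 between mice.

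Genes named are the label and sort genes, the 15 with the lowest p and the 10 with the largest change per direction, the 4 lowest p and the most abundant member of each list, and at most 10 per interaction, although not every gene that meets this rule is named. A minimum mean of 5 CPM was also set, which not every gene named meets. Members, lists and rules were fixed before the table was opened here, but with earlier results of these data known. Alternatives were no block, DESeq2 1.42.0 (test and size factors), limma-voom (limma 3.58.1), other filters, other sets of libraries and each mouse left out. The pipeline was tested on simulated data, where the main test recovered 85 of 99 genes changed by 1 and 98 of 98 changed by 2 on the log2 scale, and 22 of its 205 calls were false. Figures were drawn with matplotlib 3.10.9 in Python 3.11.15. The other 30 libraries entered only the interactions, the alternatives and the Dpp4 levels of the CD26-positive sorts.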

Additional observations from a re-analysis of the deposited data

Results flagged for a closer look

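Of 83 groups of 7 mice tested for a lone outlying mouse 4 were marked, and all 4 marks fell on WB1P-Myc mouse 69. Chance alone flags about 1 in 20 separate groups, while these groups overlap, and whether chance puts all marks on 1 mouse was not tested. Mouse 69 also had the widest distance between its sorts, with 4.56% of genes over 2-fold apart against 0.443% to 2.97% in the other 6. Its log2 ratio was -3.87 for Igkv12-44, and its median ratio was 0.39 for basement membrane genes, 0.28 for inflammatory fibroblast genes and 0.81 for adipocyte markers.

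The other 25 items are genes whose En1+ over double− difference itself differed by an interaction test. Between WB1P-Myc and WB1P tumors the log2 differences were 1.85 for Rapgef4, 1.13 for Foxc2, -3.35 for Acan, 1.06 for Apold1, 1.16 for Abcc9, 1.55 for Pilra, 0.92 for Ano1, 0.96 for Gucy1b1, 0.76 for Sema6d and 0.84 for Sort1. Between CD26-negative and CD26-positive CAFs they were -6.40 for Ighm, 0.75 for Adamts16, -1.43 for Syk, -0.66 for Gfra2, -4.75 for Jchain and -1.20 for Chrdl1. Between CAFs and NFs they were 7.50 for Cntn2 (0 counts in En1+ NFs, so that the size is uncertain), 0.87 for Tbx3, 1.72 for Vwf, 2.15 for Csn2, 0.71 for Epha3, -0.62 for Gfra2, 1.18 for Irx3, 3.18 for Spint1 and -0.54 for Vcam1.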

How the results depend on the processing

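The 108 genes called between the sorts became 0 without the mouse as a block, 229 with DESeq2, 908 without a filter on low counts, 50 with at least 1 CPM in 7 libraries, 6 with all 32 tumor libraries in the fit, 10 with all 44, 736 with WB1P pairs only, 3 with WB1P-Myc pairs only, 679 without the mice marked 8x8 and 19 with the limit on fold change, and with 1 mouse left out they ran from 0 to 478. The 11 of the tumor model interaction became 384 without the filter, 0 to 37 with 1 mouse left out and 0 for the 8x8 grouping chosen after seeing the data. The 7 of the CD26 class interaction became 305 without the filter and 0 to 31 with 1 mouse left out. The 9 of the NF interaction became 5 with DESeq2 size factors, 397 without the filter, 17 with limma-voom and 0 to 152 with 1 mouse or control pair left out (2 without control pair 44/46 or mouse 35). All 108 called genes kept their sign. Uncalled genes with reversed log2 fold changes were, with WB1P-Myc pairs only, Pdgfra (-0.0753), Itga6 (0.0919), Des (0.263), Lpl (0.0750), Abcc9 (0.200), Rapgef4 (0.65), Foxc2 (0.357), Gucy1b1 (0.179), Ano1 (0.132), Apold1 (0.326), Pilra (0.758), Sema6d (0.109), Irx3 (-0.0473), Epha3 (-0.0472) and Spint1 (-0.0920). With WB1P pairs only Pdgfrb (-0.0443) and Eng (-0.0508) reversed, without the 8x8 mice Pdgfra (-0.0058), Pdgfrb (-0.0005) and Eng (-0.0210), with 1 CPM in 7 libraries Pdgfra (-0.0019), with all 32 tumor libraries Eng (-0.0278) and Scn7a (0.0528), with all 44 Eng (-0.0253) and Scn7a (0.0297), and without the block Scn7a (0.0199). With 1 mouse left out the values ran from -0.0677 to 0.0620 for Pdgfra, -0.0018 to 0.12 for Pdgfrb, -0.0358 to 0.0533 for Eng, -0.11 to 0.0550 for Scn7a and -0.30 to 0.0195 for Pilra. The cause of these shifts was not tested.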
